A study of Mus musculus with 10 samples.

Results

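The cartilage programme examined here comprised 9 genes, all of which were found by symbol among the 36144 genes of the expression table, and the 3 footprint motifs named SOX9, Sox5 and Sox6 among 879 motifs. The genes were Sox9, Sox5 and Sox6, which encode transcription factors, and Col2a1, Acan, Col9a1, Col10a1, Chad and Cytl1, which encode matrix or secreted proteins. They were measured in primary smooth muscle cells cultured from the medial layer of the aorta. Donor mice were male and 8 weeks old, and cells were between passages 2 and 7, though the labels do not give each library's passage. The first group came from Myh11-Cre-ERT2 mice with smooth-muscle-specific Adamts7 overexpression (3 mice for RNA, 2 for ATAC-seq of 50000 cells), and the other from wild-type mice (3 for RNA, 2 for ATAC-seq). The Cre driver is named for the overexpression mice only, it is restricted to cells that use the Myh11 promoter, and it acts after tamoxifen, about which the labels say nothing for either genotype. The driver, any tamoxifen and the overexpression therefore cannot be told apart.

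SOX9 is the transcription factor that commits mesenchymal cells to the cartilage lineage, and SOX5 and SOX6 are related factors that lack an activation domain of their own and act beside it on cartilage enhancers. Their shared targets include Col2a1, the chain of type II collagen, and Acan, the core protein of the proteoglycan aggrecan, while Col10a1 marks the hypertrophic chondrocytes of the growth plate. In arteries, smooth muscle cells that leave the contractile state can take up some of these genes, in particular in diseased or calcified vessels.

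Levels are given in TPM, which are corrected for transcript length, so genes can be compared within a library. The read number behind the values is unknown. The RNA titles of the overexpression mice begin with WT, whereas their genotype label gives overexpression, and all libraries carry 1 batch label. Adamts7 itself, the check of the labels, averaged 84.5 ± 12.4 TPM in overexpression cultures and 6.82 ± 1.20 TPM in wild-type cultures (SD, n = 3 each). Genes whose mean over the 6 libraries reached 1 TPM were compared with limma on log2(TPM + 1), with Benjamini-Hochberg adjustment over all 13131 such genes and a threshold of 0.05, and fold changes on that scale understate those of low genes. Of the 9 cartilage genes 7 passed the filter, 0 of them passed the threshold, and 3 were higher in overexpression cultures at an unadjusted p under 0.05, with 0 lower. Of all genes tested 0.0152% passed the threshold and 10.6% were higher at an unadjusted p under 0.05. The libraries of the genotypes did not overlap for 3 of the 7, again all higher, where 27.2% of all genes tested did not overlap and 14.3% were higher without overlap. Col10a1, 1 of those 3 in both counts, passed the filter only through the overexpression libraries, which fixed its direction, so the counts and medians over the 7 are a description. Without it 2 of 6 were higher at an unadjusted p under 0.05 and 2 of 6 without overlap. Over the 7 the median log2 fold change was 0.24, and 0.45 without either overexpression mouse 2 or wild-type mouse 2, against -0.01 over all genes tested.

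**Figure D1:**
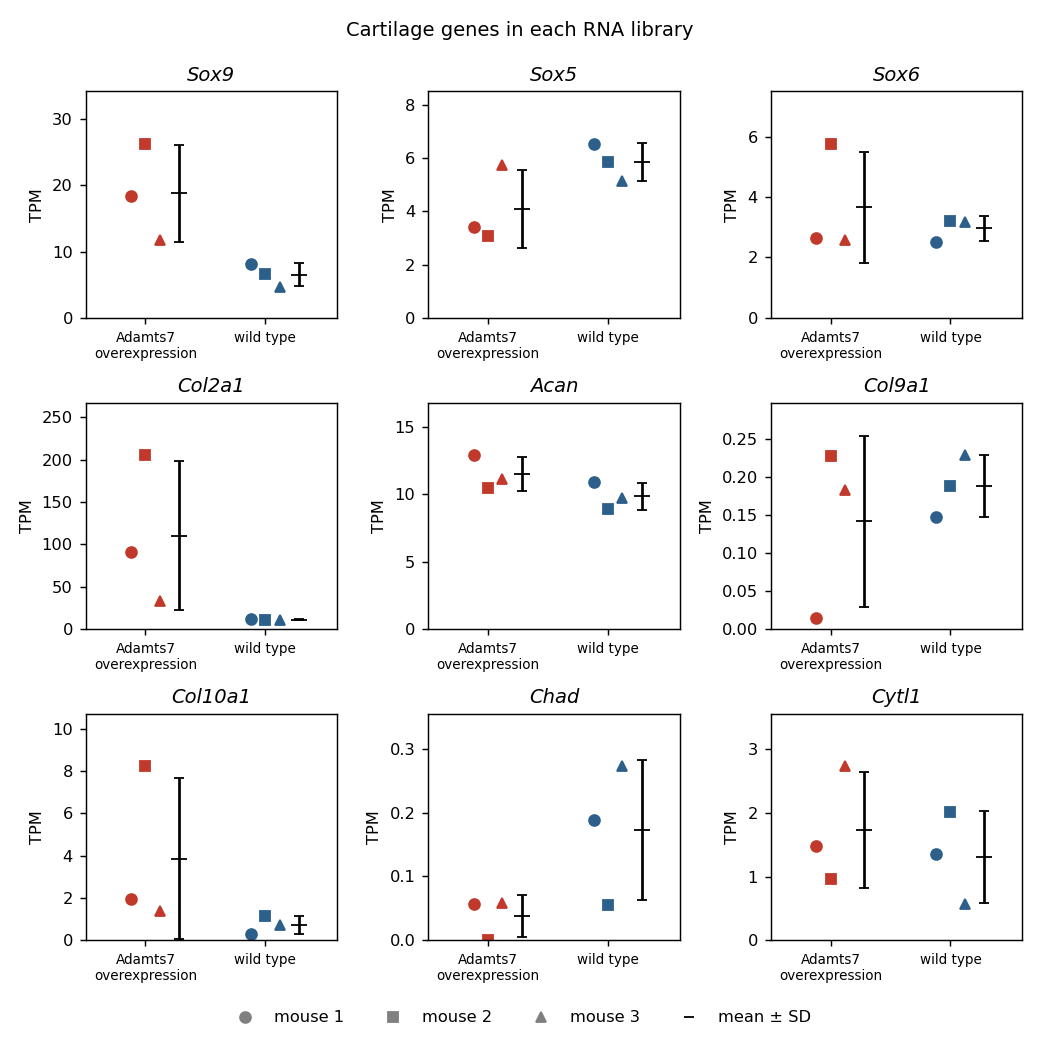
TPM of the 9 cartilage genes in each RNA library, with Adamts7 overexpression left and wild type right in every panel, a symbol per mouse and the mean with SD in black; equal mouse numbers in the 2 genotypes are separate animals. Sox9, Col2a1 and Col10a1 lie higher in all 3 overexpression libraries than in any wild-type library, with mouse 2 highest, and the groups overlap for the other 6 genes.

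Sox9 stood at 18.4, 26.3 and 11.7 TPM in overexpression mice 1, 2 and 3, against 8.17, 6.55 and 4.71 TPM in wild-type mice 1, 2 and 3. Every overexpression library was above every wild-type library, and overexpression mouse 2 was the highest. The means were 18.8 ± 7.29 TPM in overexpression cultures and 6.47 ± 1.73 TPM in wild type (SD, n = 3 each), a ratio of 2.90. The log2 fold change was 1.36 ± 0.29 (SE; limma adjusted p = 0.131). A two-sided exact permutation test over the 6 libraries gave p = 0.1, the smallest that 3 against 3 allows. Sox9 (ENSMUSG00000000567.5) lies on chromosome 11 from 112782210 to 112787757 in GRCm38.p6, the assembly of which mm10 is the browser name. Without overexpression mouse 3 limma gave an adjusted p of 0.0122 with a log2 fold change of 1.65, and with libraries weighted by quality 0.00573 with 1.43. The quality weights were estimated from the spread of these same libraries. They were 5.66, 0.278 and 0.487 for overexpression mice 1, 2 and 3, so weighted overexpression values here and below rest mainly on mouse 1. Without overexpression mouse 2 the log2 fold change was 1.09 (limma adjusted p = 0.173), and over all alternatives it ran from 1.09 to 1.65 with adjusted p from 0.00573 to 0.354. Of all genes, the fit without mouse 3 called 6.3% (3.99% higher and 2.31% lower) and the weighted fit 20.8%. The summed level of 12 macrophage markers in the same libraries was 3444, 2794 and 1078 TPM in overexpression cultures, against 438, 660.0 and 593 TPM in wild type, and its part in these values was not tested.

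Sox5 was measured at 3.41, 3.07 and 5.75 TPM in the overexpression libraries, against 6.54, 5.86 and 5.12 TPM in the wild-type libraries. Overexpression mice 1 and 2 lay below all wild-type mice, but mouse 3 lay within them, so the groups overlapped. The means were 4.08 ± 1.46 TPM in overexpression cultures and 5.84 ± 0.707 TPM in wild type (SD, n = 3 each), with a log2 fold change of -0.46 ± 0.21 (SE; limma adjusted p = 0.273). Without overexpression mouse 3 the log2 fold change was -0.69 and the limma adjusted p 0.0459, and with quality weights -0.56 and 0.0274, over alternatives ranging from 0.0274 to 0.494.

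Sox6, the close relative of Sox5, had 2.63, 5.77 and 2.57 TPM in overexpression cultures, against 2.50, 3.21 and 3.18 TPM in wild type. Overexpression mouse 2 was high and the other two lay among the wild-type mice. The log2 fold change was 0.17 ± 0.26 (SE; limma adjusted p = 0.761), and it was -0.13 without overexpression mouse 2 and -0.12 with quality weights. Sox5 (ENSMUSG00000041540.16) lies on chromosome 6 from 143828425 to 144782287 and Sox6 (ENSMUSG00000051910.13) on chromosome 7 from 115470872 to 116040776.

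The levels of the trio were also set against each other within each library. Sox9 was 5.39, 8.55 and 2.03 times as abundant as Sox5 in the overexpression libraries, against 1.25, 1.12 and 0.919 times in the wild-type libraries. The ratio was higher in every overexpression library than in any wild-type library, and a ratio within a library does not depend on how libraries are scaled to each other. On the log2 scale it averaged 2.18 ± 1.06 in overexpression cultures and 0.12 ± 0.22 in wild type (SD, n = 3 each; two-sided exact permutation p = 0.1, the smallest possible). Relative to Sox6, Sox9 was 6.98, 4.55 and 4.55 times as abundant in overexpression cultures, against 3.27, 2.04 and 1.48 times in wild type. The 3 genes together summed to 24.4, 35.1 and 20.0 TPM in overexpression cultures, against 17.2, 15.6 and 13.0 TPM in wild type. These ratios and the sum were chosen after the values were seen.

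**Figure D2:**
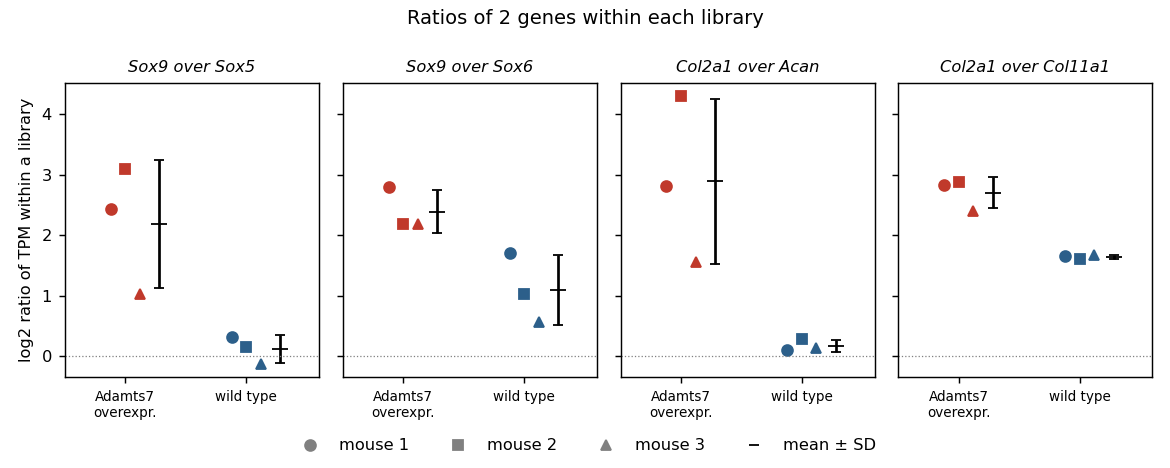
Log2 ratio of the TPM of 2 genes within each library, with Adamts7 overexpression left and wild type right, a symbol per mouse and the mean with SD in black; the dotted line marks equal levels. All 4 ratios are higher in each overexpression library than in any wild-type library, and overexpression mouse 3 lies nearest to wild type for Sox9 over Sox5 and for Col2a1 over Acan.

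Among the structural genes Col2a1 had the largest difference. It stood at 91.2, 206 and 33.0 TPM in overexpression mice 1, 2 and 3, against 11.7, 10.9 and 10.6 TPM in the wild-type mice. The wild-type libraries lay close together, whereas the overexpression libraries spread widely above them. The means were 109.9 ± 87.8 TPM in overexpression cultures and 11.1 ± 0.568 TPM in wild type (SD, n = 3 each), a ratio of 9.93. On the log2 scale the fold change was 2.84 ± 0.56 (SE; limma adjusted p = 0.128; two-sided exact permutation p = 0.1, the smallest possible). Ranked by TPM among all genes, Col2a1 was number 1860, 724 and 4979 in the overexpression libraries, against 8500, 8824 and 8865 in the wild-type libraries. Without overexpression mouse 3 the log2 fold change was 3.52 and the limma adjusted p 0.00217, and with quality weights 2.89 and 0.00573. Without overexpression mouse 2 the log2 fold change was 2.21 (limma adjusted p = 0.159) and the ratio of means 5.61. Adjusted p ranged from 0.00217 to 0.354 over all alternatives. Col2a1 (ENSMUSG00000022483.17) lies on chromosome 15 from 97975602 to 98004724.

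The 6 libraries had the same order for Col2a1 as for Sox9, with overexpression mice 2, 1 and 3 first and wild-type mice 1, 2 and 3 after them. The correlation of log2(TPM + 1) over the 6 libraries was 0.97 (Pearson), and 0.87 for deviations from the genotype means, in libraries that also share their marker gene differences. Of 12309 tested genes with no predicted-model name, 106 had that same order of libraries. By Pearson correlation over 6 libraries genes most like Col2a1 included Neo1, Col12a1, Hgf and Efs, with correlations between 0.995 and 0.998. Hgf, at 0.399 to 0.477 TPM in wild type, passed the filter only through the overexpression libraries, which fixed its direction. Those most like Sox9 were Serp1, Aebp1, Pgm3, Zfp9 and Cux1, between 0.993 and 0.996.

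Type II collagen forms heterotypic fibrils with types XI and IX, and the partner chains did not all follow Col2a1. Col11a1, a chain of type XI collagen, had 12.9, 27.7 and 6.22 TPM in overexpression cultures, against 3.70, 3.56 and 3.35 TPM in wild type, with no overlap (log2 fold change 1.65 ± 0.44 SE, limma adjusted p = 0.142). Col2a1 was nevertheless 7.09, 7.42 and 5.31 times as abundant as Col11a1 in overexpression cultures, against 3.17, 3.05 and 3.18 times in wild type. Col11a2, the second chain of type XI, was at 0.789, 0.654 and 0.741 TPM in overexpression cultures, against 1.29, 0.506 and 0.480 TPM in wild type, and was too low to be tested.

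Col9a1, which encodes a chain of type IX collagen on the surface of cartilage fibrils, was close to 0 in every library. It had 0.0148, 0.227 and 0.183 TPM in overexpression cultures, against 0.148, 0.188 and 0.229 TPM in wild type, and did not pass the filter. Its partner chains were also low. Col9a2 lay between 0.371 and 0.415 TPM in overexpression cultures and between 0.258 and 0.469 TPM in wild type. Col9a3 lay between 0.700 and 2.73 TPM in overexpression cultures and between 0.480 and 0.903 TPM in wild type. Col11a2, Col9a2 and Col9a3 were named to complete the fibril.

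Acan was at similar levels in both genotypes, unlike Col2a1. It had 12.9, 10.5 and 11.2 TPM in overexpression cultures, against 10.9, 8.95 and 9.73 TPM in wild type. The groups overlapped, as overexpression mouse 2 lay under wild-type mouse 1. Its log2 fold change was 0.20 ± 0.12 (SE; limma adjusted p = 0.374). With quality weights it was 0.37 and was called (limma adjusted p = 0.0243, over alternatives ranging from 0.0243 to 0.665). That fit rests mainly on overexpression mouse 1, the library with the highest Acan level. Col2a1 and Acan were nearly equal in wild-type libraries, and Col2a1 was 7.04, 19.7 and 2.96 times as abundant as Acan in overexpression cultures, against 1.07, 1.21 and 1.09 times in wild type. Acan (ENSMUSG00000030607.7) lies on chromosome 7 from 79053226 to 79115099. Hapln1, the link protein that fixes aggrecan to hyaluronan, was between 0.0159 and 0.171 TPM in overexpression cultures and between 0 and 0.0532 TPM in wild type.

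Col10a1, the short-chain collagen of hypertrophic cartilage, had 1.96, 8.24 and 1.37 TPM in overexpression cultures, against 0.304, 1.13 and 0.695 TPM in wild type. All overexpression libraries lay above all wild-type libraries, but mice 1 and 3 only by a small margin. The log2 fold change was 1.26 ± 0.50 (SE; limma adjusted p = 0.229), and 0.66 without overexpression mouse 2. The gene passed the filter only through the overexpression libraries. Col10a1 (ENSMUSG00000039462.4) lies on chromosome 10 from 34389981 to 34397085, within the span of Nt5dc1 (34303609 to 34418589). Nt5dc1 had 7.67, 8.75 and 8.49 TPM in overexpression cultures, against 8.84, 7.32 and 8.48 TPM in wild type, and the 2 genes had different patterns.

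Chad and Cytl1 remained low. Chad encodes chondroadherin, a leucine-rich matrix protein that binds integrin, and had 0.0566 and 0.0583 TPM in overexpression mice 1 and 3 and was listed at 0 in mouse 2, against 0.188, 0.0554 and 0.274 TPM in wild type. It did not pass the filter, and with no filter its log2 fold change was -0.17 (limma adjusted p = 0.400). Chad (chromosome 11, 94565047 to 94569127) lies within the span of Acsf2, which had 16.3 to 18.5 TPM in overexpression cultures and 16.6 to 19.2 TPM in wild type. Cytl1, a secreted cytokine-like protein first linked to chondrocyte differentiation in mouse cells, had 1.49, 0.964 and 2.74 TPM in overexpression cultures, against 1.36, 2.01 and 0.569 TPM in wild type. Its groups overlapped fully (log2 fold change 0.24 ± 0.32 SE, limma adjusted p = 0.723), and the sign turned without overexpression mouse 3 (-0.015) or without wild-type mouse 3 (-0.017).

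By mean level the order in overexpression cultures was Col2a1, Sox9, Acan, Sox5, Col10a1, Sox6, Cytl1, Col9a1 and Chad. In wild type it was Col2a1, Acan, Sox9, Sox5, Sox6, Cytl1, Col10a1, Col9a1 and Chad. In overexpression cultures the neighbours Sox5, Col10a1 and Sox6 did not differ beyond their spread, with means between 3.65 and 4.08 TPM and SDs between 1.46 and 3.81 TPM. In wild type Sox9 and Sox5 (6.47 ± 1.73 and 5.84 ± 0.707 TPM), and Col9a1 and Chad (0.188 ± 0.0406 and 0.172 ± 0.110 TPM), lay within each other's spread (SD, n = 3 each). Ranges of mean ± SD also overlapped for other neighbours. Examples are Cytl1 and Col10a1 (1.31 ± 0.723 and 0.709 ± 0.411 TPM) and Col2a1 and Acan (11.1 ± 0.568 and 9.87 ± 0.990 TPM) in wild type. Another is Col9a1 and Chad in overexpression cultures (0.142 ± 0.112 and 0.0383 ± 0.0332 TPM). The order is therefore a description.

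SOX proteins bind DNA through an HMG box whose core site reads ACAAT or ACAAAG. RefSeq promoter windows (GRCm38.p6), from 250 bases before to 50 bases after a transcript start, were searched for these letters and their reverse complements ATTGT and CTTTGT, which do not overlap each other in the matches shown. Windows were found for 7 of the 9 genes, with 13 windows in all, and Sox9 and Col2a1 have no entry. Of all 32851 windows 31.0% held the first form, 18.7% the second and 42.9% either, and 8 of the 13 held either. Of those 8 windows 6 were alternative starts of Sox6, so by gene 3 of 7 (Sox5, Sox6 and Col10a1) had a match. The 42.9% counts windows, not genes, so it is not a like measure for this count by gene. Shown are Col10a1, whose RNA was higher without overlap, Acan, whose RNA overlapped between genotypes, and Sox5, whose RNA was lower on average. Capitals mark the matches.
Col10a1, GRCm38.p6 chr10:34389731-34390030, plus strand: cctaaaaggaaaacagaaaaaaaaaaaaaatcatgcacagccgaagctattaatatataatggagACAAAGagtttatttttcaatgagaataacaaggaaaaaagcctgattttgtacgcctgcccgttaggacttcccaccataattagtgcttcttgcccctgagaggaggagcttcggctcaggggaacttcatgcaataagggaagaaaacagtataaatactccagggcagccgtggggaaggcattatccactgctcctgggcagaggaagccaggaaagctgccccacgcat
Acan, GRCm38.p6 chr7:79052976-79053275, plus strand: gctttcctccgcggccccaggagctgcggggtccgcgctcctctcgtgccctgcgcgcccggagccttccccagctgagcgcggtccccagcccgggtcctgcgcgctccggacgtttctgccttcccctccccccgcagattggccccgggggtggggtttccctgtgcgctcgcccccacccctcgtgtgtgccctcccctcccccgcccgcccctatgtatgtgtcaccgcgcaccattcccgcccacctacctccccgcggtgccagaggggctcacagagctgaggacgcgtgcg
Sox5, GRCm38.p6 chr6:143947057-143947356, minus strand: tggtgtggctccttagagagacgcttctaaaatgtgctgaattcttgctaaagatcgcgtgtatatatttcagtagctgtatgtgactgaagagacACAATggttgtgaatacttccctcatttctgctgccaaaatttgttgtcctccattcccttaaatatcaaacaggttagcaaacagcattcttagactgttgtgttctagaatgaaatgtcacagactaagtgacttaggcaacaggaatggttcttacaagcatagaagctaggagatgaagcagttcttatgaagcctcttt
Col10a1 held 1 match, ACAAAG, which began 185 bases before the start. Acan held no match in a window with 74.0% G and C. The Sox5 window belongs to a start inside the gene and held 1 ACAAT, beginning 154 bases before it. A match of this length is a description of the letters, and the windows for Col9a1, Chad and Cytl1 held none.

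In ATAC-seq, footprint scores summarise the dip in transposase insertions and the open flanks at motif sites, and a bound site is one the authors called from that score. The authors' deposited table gives 1 merged value per genotype, from 2 mice, so there is no replicate error and no test beyond theirs. The SOX9 motif had a mean score of 0.191 in overexpression cultures and 0.172 in wild type, with 913 and 742 of 13813 sites called bound. That is 6.61% in overexpression cultures (95% Wilson interval 6.21 to 7.04%) and 5.37% in wild type (5.01 to 5.76%). Intervals cover counting error only. The Sox5 motif was bound at 6.77% of 19731 sites in overexpression cultures (6.43 to 7.13%) and at 5.56% in wild type (5.25 to 5.89%), with mean scores of 0.194 and 0.175. The Sox6 motif was bound at 6.51% of 35817 sites in overexpression cultures (6.26 to 6.77%) and at 5.66% in wild type (5.42 to 5.90%), with mean scores of 0.189 and 0.173. Bound sites were 1.23, 1.22 and 1.15 times as many in overexpression cultures for the 3 motifs in that order, and the median over all motifs was 1.05.

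The change score in the authors' deposited table, with its sign set to overexpression over wild type, was 0.28 for SOX9, 0.27 for Sox5 and 0.25 for Sox6, against a median of 0.11 over all motifs. These ranked 244, 254 and 274 of 879, with 61.9% of all motifs above 0, so the 3 motifs lay on the higher side but not near its top. The authors' deposited p-value was under 0.05 for all 3 motifs, and for 99.7% of all motifs. The authors' deposited table marks 96 motifs as standing out, among them 0 of the SOX and SRY motifs. All 19 SOX and SRY motifs had a change above 0, from 0.08 to 0.47 with a median of 0.21. SRY (0.47) and SOX18 (0.37) were the largest, while Sox3, SOX2 and SOX13, which hold identical values, were the smallest at 0.08. By the authors' clusters the SOX9 and Sox5 motifs fall together with those of SOX8, Sox7 and Sox17, and Sox6 with SOX4, so the 19 motifs are not independent and a footprint cannot be assigned to 1 factor. Motifs with low wild-type scores tended to have larger changes (Spearman correlation of -0.65 over 879 motifs, which share libraries and base composition). Some did not follow this, such as FOSL1::JUNB, with a change of 0.66 at a wild-type score of 0.240, above the median of 0.207. The change score also tracks the log2 ratio of the 2 mean scores (Pearson correlation of 0.994). It therefore contains the wild-type score, and the 2 quantities are not independent. The SOX9, Sox6 and Sox5 wild-type scores were above those of 22.5%, 23.0% and 24.6% of motifs. The part of this relation in the change of the 3 motifs was not tested.

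**Figure D3:**
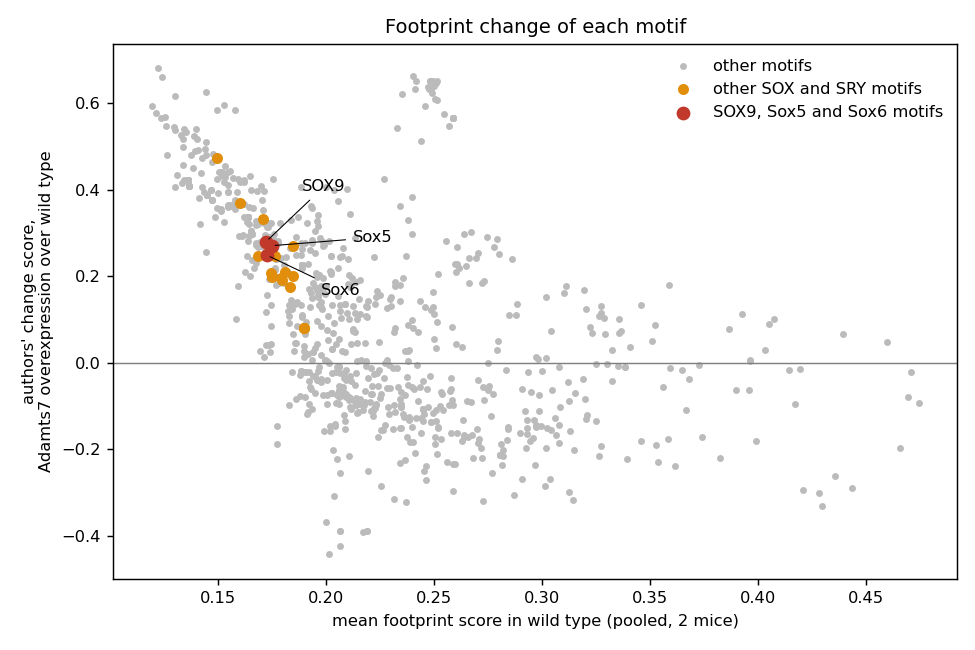
The authors' change score of each of 879 motifs, Adamts7 overexpression over wild type, against its mean footprint score in wild type; each point is 1 motif from libraries pooled over 2 mice per genotype. The SOX9, Sox5 and Sox6 motifs (red) and the other SOX and SRY motifs (orange) all lie above 0, within the band of motifs with low wild-type scores.

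Other SOX genes could use the same sites, and 5 of the 17 others in the list passed the filter. All 5 had lower means in overexpression cultures, 4 of them without overlap, where 12.9% of all genes tested were lower without overlap, and 0 passed limma's threshold. Sox4 was the most abundant, at 118 ± 10.8 TPM in overexpression cultures and 127 ± 7.21 TPM in wild type (SD, n = 3 each), and overlapped. Sox7 and Sox17, SOXF factors of the endothelium, were at 42.7 ± 7.06 and 32.6 ± 2.17 TPM in overexpression cultures, against 62.3 ± 2.85 and 43.7 ± 5.21 TPM in wild type (SD, n = 3 each). Sox7 had a log2 fold change of -0.55 ± 0.12 and Sox17 of -0.41 ± 0.10 (SE; limma adjusted p = 0.131 and 0.134). The summed level of 10 endothelial markers was 2310 to 3838 TPM in the same overexpression cultures and 4540 to 5052 TPM in wild type, and its part in the Sox7 and Sox17 values was not tested. Of the 8 SOX genes tested, Sox9 alone had overexpression libraries wholly above wild type.

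**Figure D4:**
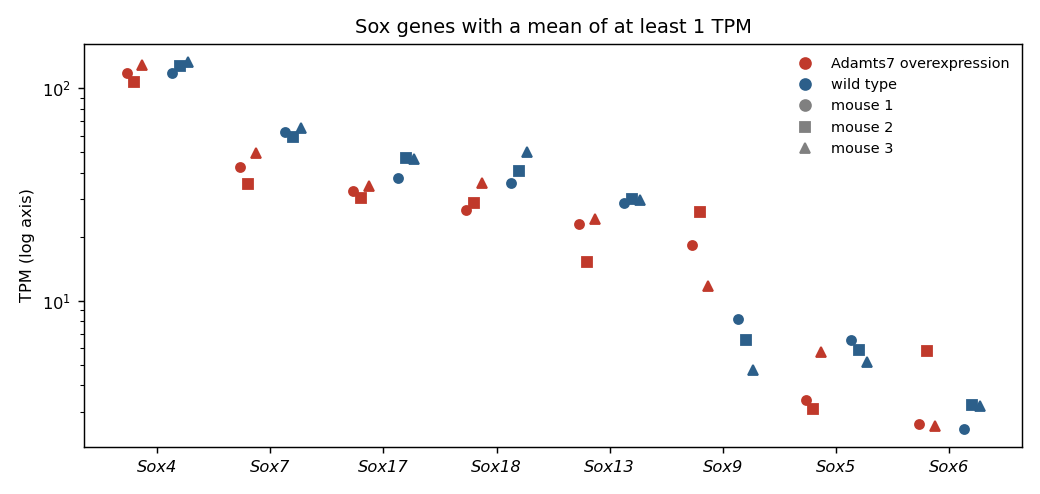
TPM on a log axis of the 8 SOX genes that reached a mean of 1 TPM, Adamts7 overexpression in red left of wild type in blue, a symbol per mouse. Sox9 lies higher in overexpression cultures, Sox7, Sox17, Sox18 and Sox13 lie lower without overlap, and Sox4, Sox5 and Sox6 overlap.

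Of 24 further cartilage matrix genes 10 passed the filter and 0 passed limma's threshold. At an unadjusted p under 0.05, 4 were higher and 1 lower, where 10.6% and 8.94% of all genes tested were higher and lower, and the median log2 fold change was 0.63. It was 0.18 without overexpression mouse 2. Fmod, 1 of the 4, and Col9a3 passed the filter only through the overexpression libraries, and Matn4 and Mia only through wild type, which fixed their directions. Without these genes 3 of 6 were higher and 1 lower, with a median of 0.94. Susd5, a hyaluronan-binding membrane protein gene, had 0.82 ± 0.21 (SE; limma adjusted p = 0.133), at 5.49 ± 1.77 TPM in overexpression cultures and 2.61 ± 0.270 TPM in wild type (SD, n = 3 each). Prelp, a collagen-binding small proteoglycan, had 19.5 ± 10.3 TPM in overexpression cultures and 7.96 ± 0.483 TPM in wild type, with a log2 fold change of 1.08, or 0.70 without overexpression mouse 2. Matn2, a matrilin, was at 14.7 ± 1.22 TPM in overexpression cultures and 17.6 ± 1.76 TPM in wild type. Snorc, Cnmd, Epyc, Ucma, Scrg1 and Clec3a, which are typical of mature cartilage, were listed at 0 in all 6 libraries. That is 6 of the 24, and 37.7% of all genes in the table were at 0 in every library. Col9a1, Chad and Hapln1 were near 0 and untested, so the label of a cartilage programme was measured here only in part.

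Among 18 regulators of chondrocytes 13 were tested and 0 passed limma's threshold, with a median log2 fold change of 0.13. That median was 0.048 without overexpression mouse 2, 0.074 without wild-type mouse 1 and 0.029 without Runx3, which passed the filter only through the overexpression libraries. Mef2c, a MADS factor of muscle and hypertrophic cartilage, was at 12.2 ± 2.38 TPM in overexpression cultures and 6.97 ± 0.862 TPM in wild type, and Wwp2, a ubiquitin ligase whose gene hosts a cartilage microRNA, at 54.2 ± 6.91 TPM in overexpression cultures and 42.0 ± 1.11 TPM in wild type (SD, n = 3 each). The log2 fold change of Mef2c was 0.72 ± 0.16 and that of Wwp2 0.35 ± 0.10 (SE; limma adjusted p = 0.131 and 0.143). The abundant factors Arid5b and Nfib were lower without overlap, with -0.20 and -0.28, or -0.10 and -0.14 without overexpression mouse 2. Growth plate signals had 12 of 17 genes tested, 0 past limma's threshold and a median of 0.15, with Nog passing the filter only through the overexpression libraries. Among them Ccn2, a secreted matricellular protein, was at 1791 ± 327 TPM in overexpression cultures and 1564 ± 30.6 TPM in wild type, and Bmp4 at 1113 ± 317 TPM in overexpression cultures and 1408 ± 34.0 TPM in wild type (SD, n = 3 each). The receptor gene Bmpr1a had a log2 fold change of 0.21 and Ccn1 had -0.18.

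Genes of hypertrophy and mineral had 7 of 12 tested, 0 past limma's threshold and a median log2 fold change of 0.25. Spp1, which encodes osteopontin and is also made by macrophages, whose markers were higher in the same libraries, was at 258 ± 187 TPM in overexpression cultures and 40.9 ± 6.53 TPM in wild type (SD, n = 3 each; 2.30 ± 0.58 SE, limma adjusted p = 0.133). Vegfa, the vascular growth factor, was lower without overlap, with -0.42 ± 0.09 (SE), and Mgp, an inhibitor of calcification, was at 679.5 ± 24.1 TPM in overexpression cultures and 696 ± 11.4 TPM in wild type. Ibsp, a bone sialoprotein gene, was listed at 0 in all libraries.

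Enzymes that build and sulphate chondroitin chains had 14 of 16 tested, 0 past limma's threshold and a median of -0.03, which was 0.027 without overexpression mouse 2 and 0.0069 without wild-type mouse 1. Chpf, a chondroitin polymerising factor, and Papss2, which makes the sulphate donor, were higher without overlap, with log2 fold changes of 0.95 ± 0.25 and 0.51 ± 0.14 (SE). Ugdh and Uxs1, which supply UDP-sugars, had -0.13 and -0.03. Collagen receptors had 7 of 7 tested, 0 past limma's threshold and a median of 0.22, or 0.34 without overexpression mouse 1, with Itga10 passing the filter only through the overexpression libraries. Ddr2, a receptor tyrosine kinase for fibrillar collagen, had 0.94 ± 0.25 and Itgb1, the shared integrin beta chain, 0.22 ± 0.05 (SE), both without overlap, while Ddr1 overlapped with 0.22. Aggrecanases and cartilage proteases had 8 of 10 tested, 0 past limma's threshold and a median of 0.26, or 0.14 without overexpression mouse 2. In that list Adamts5, an aggrecanase, had 0.89 ± 0.19, the membrane protease gene Mmp14 0.29 ± 0.08 and the inhibitor gene Timp3 0.69 ± 0.29 (SE), each higher without overlap, and Timp3 had 0.31 without overexpression mouse 2.

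**Figure D5:**
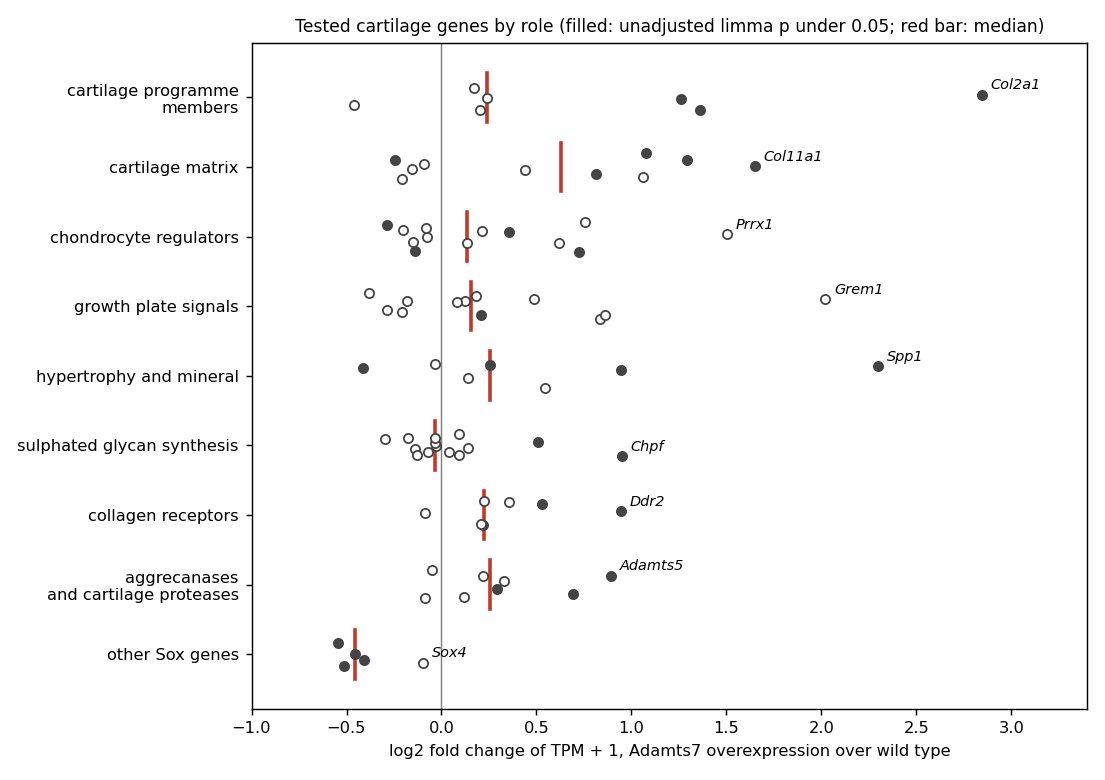
Log2 fold change of TPM + 1, Adamts7 overexpression over wild type, for each tested gene of the cartilage programme and of 8 lists by role; filled points have an unadjusted limma p under 0.05, the red bar is the median and the gene farthest to the right is named. Col2a1 at 2.84 lies farthest to the right, glycan synthesis genes centre near 0 and the other Sox genes lie below 0.

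Markers of other cell types differed between the same libraries. All 12 macrophage markers, led by Lyz2 and C1qa, were higher without overlap, where 14.3% of all genes tested were. Of 10 endothelial markers, led by Emcn and Cdh5, 6 were lower without overlap, where 12.9% of all genes tested were. Smooth muscle markers, with Acta2 and Tagln the most abundant, had 5 of 7 higher and 1 lower without overlap, with sums of 2625 to 3949.8 TPM in overexpression cultures and 2290.5 to 2405 TPM in wild type. The 8 fibroblast and tendon markers, led by Dcn and Pi16, summed to 27.7 to 32.3 TPM in overexpression cultures and 31.6 to 54.1 TPM in wild type. Schwann and melanocyte markers, led by S100b, which chondrocytes also express, and Mitf, summed to 9.42 to 22.7 TPM in overexpression cultures and 6.96 to 8.23 TPM in wild type. The 6 osteoblast markers, led by Ifitm5 and Bglap2, summed to 2.19 to 3.54 TPM in overexpression cultures and 1.19 to 2.70 TPM in wild type, and none was tested. No marker of these 6 lists was at 0 in every library. Overexpression mouse 3 was nearest to wild type for the macrophage, endothelial and smooth muscle sums, as it was for Sox9 and Col2a1, whereas the macrophage sum was highest in mouse 1 and Sox9 and Col2a1 in mouse 2. The part of cell composition in the cartilage gene values was not tested, and in bulk RNA fewer cells of a type and less RNA per cell cannot be told apart.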

How the data were processed

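RNA was measured in 6 libraries and chromatin accessibility in 4, grouped by the genotype label, with mouse numbers from the titles. The authors deposited kallisto TPM for each gene, per the labels, with build mm10 per the submitters' processing notes. For ATAC-seq the authors deposited a TOBIAS BINDetect table, per the file headers, with counts of all and of bound sites, a mean footprint score, a change score and a p-value for each motif, pooled over mice. The kallisto version, annotation, read number, peak calling and the bound threshold are not stated in the labels. TPM are relative, so abundant genes lower the others.

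Genes reaching a mean of 1 TPM were tested with limma 3.58.1 in R 4.3.3 (trend, two-sided, pseudocount 1), checked on simulated data. Other values used Python 3.11.15, scipy 1.17.1 and pandas 2.3.3. Of 36144 symbols 35933 occurred in the gene name reference, and coordinates are RefSeq's on GRCm38.p6. Named genes are all 9 cartilage genes, the 2 smallest p and 2 highest means of each list, the 2 most abundant markers, and the 5 closest patterns, of which 1 is not reported here; others are said to be named after their values were seen or to complete a set. The genes and lists were chosen with earlier results of these data known. Alternatives were the pseudocount, filters, scalings, library weights, each library left out, and the mouse number as a block. Medians and ratios of means with single libraries left out, and counts without genes that passed the filter through 1 genotype, were added after seeing the data. The labels give each library its own mouse, so limma and permutation p-values reflect the spread between cultures of separate animals. That spread includes any difference in passage or cell composition between cultures. The authors' motif p-values come from libraries pooled over mice and do not reflect it.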

Additional observations from a re-analysis of the deposited data

How the results depend on the processing

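Over all genes tested limma called 2, but 1 with a mean of at least 5 TPM, 2728 with quality weights, and 1 to 828 when single libraries were left out, the highest without overexpression mouse 3. Of the cartilage genes 0 were called, but 4 with quality weights (Sox9, Sox5, Col2a1 and Acan), and 0 to 3 when single libraries were left out, the 3 (Sox9, Sox5 and Col2a1) without overexpression mouse 3; the cause was not tested. Quality weights, estimated from the spread of these libraries, gave overexpression mice 1, 2 and 3 weights of 5.66, 0.278 and 0.487. The weighted calls therefore rest mainly on mouse 1 for the overexpression group. With the mouse number as a block 1 gene was called and 0 cartilage genes. Deviations of same-numbered mice had correlations of -0.022, 0.058 and 0.018. No pairing by number was seen, though 3 mice per genotype cannot settle whether there was one. The log2 fold change of Sox6 was -0.12 with quality weights and ran from -0.13 to 0.33 with libraries left out, Cytl1 from -0.017 to 0.45, Uxs1 from -0.079 to 0.025 and Pi16 from -0.33 to 0.14; none of these was called. Over 45 named genes and 13 settings, 51 of 577 values were called and 7 turned sign. By the difference of the bound share, in place of the change score, SOX9 and Sox5 exceeded 86.3% and 85.8% of motifs, against 72.2% and 71.1%, and Sox6 71.3% against 68.8%. Rank correlation shared 0 and 1 of the 5 closest patterns of Col2a1 and Sox9, and deviations from the genotype means 0 and 2. Neither read number nor replicate footprints are known, which limits low genes and motifs most.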

Other observations

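Some genes of the cartilage lists, and the Schwann and melanocyte marker S100b, were several times higher in overexpression mouse 2 than in any other library; they were chosen after their values were seen. Grem1, a BMP antagonist, had 80.9 TPM in that library and 5.12 and 3.54 TPM in overexpression mice 1 and 3, against 1.99, 2.43 and 2.33 TPM in wild type. Prrx1, a factor of limb and mesenchyme, had 69.5 TPM there and 13.3 and 7.86 TPM in the other overexpression mice, against 5.40 to 6.90 TPM in wild type. Comp, a cartilage matrix protein and reported substrate of ADAMTS7, had 10.4 TPM there and 1.96 and 1.55 TPM in the others, against 0.887 to 1.41 TPM in wild type. Fgfr3, a growth factor receptor of the growth plate, had 10.5 TPM there and 2.59 and 2.54 TPM in the others, against 1.35 to 2.43 TPM in wild type. S100b had 14.0 TPM there and 2.44 and 1.34 TPM in the others, against 0.722 to 1.46 TPM in wild type. None of these 5 genes was called by limma, with adjusted p-values between 0.274 and 0.347. S100b passed the filter only through the overexpression libraries, which fixed its direction.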
